A study of Homo sapiens with 6 samples.

Results

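A group of 35 genes was followed that comprises targets of the transcription factor NF-kB together with cytokine and chemokine genes. The members were listed by symbol, and each was read from the array's transcript cluster (the unit in which the platform summarises its probes) that carried that symbol alone and had the highest mean signal over 6 arrays. All 35 members had such a cluster, out of 22465 genes measured, and no filter on dim signals was applied. Total RNA came from MDA-MB-231 cells, an established line of triple-negative breast cancer with a mesenchymal-like form. The cells had been transduced with lentivirus and selected with puromycin at 2 µg/mL, and the transgene was wild-type DAXX in 1 group (DAXX OE) and DAXX with disabled SUMO-interacting motifs in the other (DSM OE). DAXX deposits histones and regulates transcription together with other factors, and its SUMO-interacting motifs let it bind proteins that carry the modifier SUMO. Both cDNAs carried epitope tags and were driven by the cytomegalovirus immediate early promoter, and each group was 1 stable population, grown for 24 h in complete medium and measured on 3 arrays. The labels call the 3 arrays biological replicates, so the p-values reflect the spread among cultures rather than among transductions. Both groups carry extra DAXX and the endogenous gene, and vector controls were not analysed here. Every difference is DSM OE minus DAXX OE, and none is a change from unmodified cells.

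NF-kB is a family of dimeric transcription factors that IkB proteins hold in the cytoplasm. Signals from TNF, interleukin-1 or Toll-like receptors activate IkB kinase, the IkB protein is degraded, and the freed dimers enter the nucleus and bind kappa-B sites in the promoters of cytokine, chemokine and adhesion genes. The pathway also induces its own inhibitors, among them NFKBIA and TNFAIP3, which limit the response. MDA-MB-231 cells are known for constitutive NF-kB activity and for secreting interleukin-6 and CXCL8.

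To show what the members share in sequence, the window from 250 bases before to 50 bases after the start site was taken from RefSeq (GRCh38.p14) for the 28 members that the sequence table held. It was searched on both strands for the kappa-B decamer consensus, which runs from G bases through a purine, free bases and pyrimidines to C bases. Of the 28 windows 16 held it (57.1%), against 3956 of 35116 windows of the same length over all genes (11.3%). CCL2, CCL5, CX3CL1, LIF, CSF1, CSF3 and RELB had no window and were not searched. A match is a description of the letters and not a measured binding site. The 5 chemokine genes CXCL1, CXCL2, CXCL3, CXCL5 and CXCL6, which lie close together on chromosome 4, held the same run of letters, with overlapping matches on both strands that ended 68 to 82 bases before the start site. The stretches from 120 to 21 bases before the start site are shown for these 5, with the matches in capitals.
CXCL1, chr4:73869273-73869372, plus strand: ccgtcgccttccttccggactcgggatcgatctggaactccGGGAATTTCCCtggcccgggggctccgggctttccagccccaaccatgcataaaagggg
CXCL2, chr4:74099216-74099315, minus strand: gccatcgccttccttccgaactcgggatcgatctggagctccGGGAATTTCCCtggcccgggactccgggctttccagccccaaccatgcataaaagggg
CXCL3, chr4:74038710-74038809, minus strand: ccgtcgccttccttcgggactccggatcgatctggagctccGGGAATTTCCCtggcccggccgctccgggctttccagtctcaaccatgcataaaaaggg
CXCL5, chr4:73998698-73998797, minus strand: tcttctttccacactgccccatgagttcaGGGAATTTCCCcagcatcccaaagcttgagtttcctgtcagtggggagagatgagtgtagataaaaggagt
CXCL6, chr4:73836558-73836657, plus strand: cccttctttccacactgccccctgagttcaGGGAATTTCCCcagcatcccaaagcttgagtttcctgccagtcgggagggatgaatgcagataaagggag

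A shorter palindromic motif, GGAANTTCC, was searched next. It lies within many consensus matches, was chosen after the first search, and occurred in 12 of the 28 member windows and in 0.965% of all windows. It was the motif found in CXCL8 and ICAM1, whose windows had no consensus match. The stretch of CXCL8 from the same positions and stretches of ICAM1 and NFKBIZ from farther upstream are shown with the matches in capitals. They were picked because their mean signal was higher in DSM OE, so they cannot show a relation of motif to signal. Without the array DAXX OE replicate 1, members with this motif differed in both directions, from -0.14 in NFKBIA to 0.28 in ICAM1.
CXCL8, chr4:73740449-73740548, plus strand: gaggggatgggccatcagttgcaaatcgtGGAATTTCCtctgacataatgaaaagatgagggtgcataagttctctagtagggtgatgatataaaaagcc
ICAM1, chr19:10270890-10270989, plus strand: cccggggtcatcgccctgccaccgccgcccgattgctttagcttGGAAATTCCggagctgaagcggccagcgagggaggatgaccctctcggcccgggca
NFKBIZ, chr3:101827740-101827839, plus strand: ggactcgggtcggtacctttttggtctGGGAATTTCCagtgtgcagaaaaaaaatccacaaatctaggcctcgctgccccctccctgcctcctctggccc
IL1A, IL1B and IL24 had neither motif in their windows, and their stretches from 120 to 21 bases before the start are given because their array values are described in full later.
IL1A, chr2:112784514-112784613, minus strand: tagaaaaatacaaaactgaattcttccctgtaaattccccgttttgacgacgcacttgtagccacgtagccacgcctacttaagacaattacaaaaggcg
IL1B, chr2:112836800-112836899, minus strand: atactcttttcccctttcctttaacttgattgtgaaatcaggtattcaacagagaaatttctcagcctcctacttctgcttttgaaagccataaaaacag
IL24, chr1:206897323-206897422, plus strand: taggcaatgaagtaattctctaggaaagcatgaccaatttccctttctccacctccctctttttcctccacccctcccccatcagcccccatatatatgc

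The array DAXX OE replicate 1, stood apart, and this touched most members. Across genes it correlated with the other arrays at 0.973 to 0.980, where those 5 correlated among themselves at 0.996 to 0.998. Genes are no independent replicates, and these values only describe the arrays. On this array dim genes read high and bright genes read low, with a median deviation from DAXX OE replicates 2 and 3 of 0.34 (log2) in the fourth of 20 bins of signal level and of -0.40 in the seventeenth. Of the 22 members above the median level over the other 5 arrays, 20 read lower on it than on both other DAXX OE arrays, and of the 13 below that level 8 read higher. The median of 23 background probe sets was 4.26 to 4.46 per array, and 31 to 33 members lay above it. The brightest of these sets read 11.2 to 11.7, and 0 members lay above that. The median therefore serves as a reference level and not as a limit of detection. The DAXX signal (log2, SD, n = 3) averaged 8.86 ± 0.16 under DAXX OE and 9.34 ± 0.03 under DSM OE (limma adjusted p = 0.416). Without DAXX OE replicate 1 the difference was 0.40 (adjusted p = 0.0144). The mean log2 signal of 8 mesenchymal markers was 9.69 to 9.87 per array, with VIM and AXL the brightest (11.8 to 11.9) and SPARC the dimmest (6.66 in DAXX OE and 6.56 in DSM OE). Of 7 measured luminal markers (mean 7.08 to 7.12), PGR lay below the background median (3.73 and 3.57). ESR1 (5.78 and 5.63), CDH1 (5.64 and 5.48), GATA3 (6.87 and 6.94), EPCAM (7.50 and 7.84) and the keratins KRT8 and KRT18 (9.92 to 10.4) lay above it. Member results are therefore given with 6 arrays and without that array (5 arrays). Values after cyclic loess normalization, which removes level-dependent trends and keeps 6 arrays, are plotted for every member and given in the text for some.

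**Figure D1:**
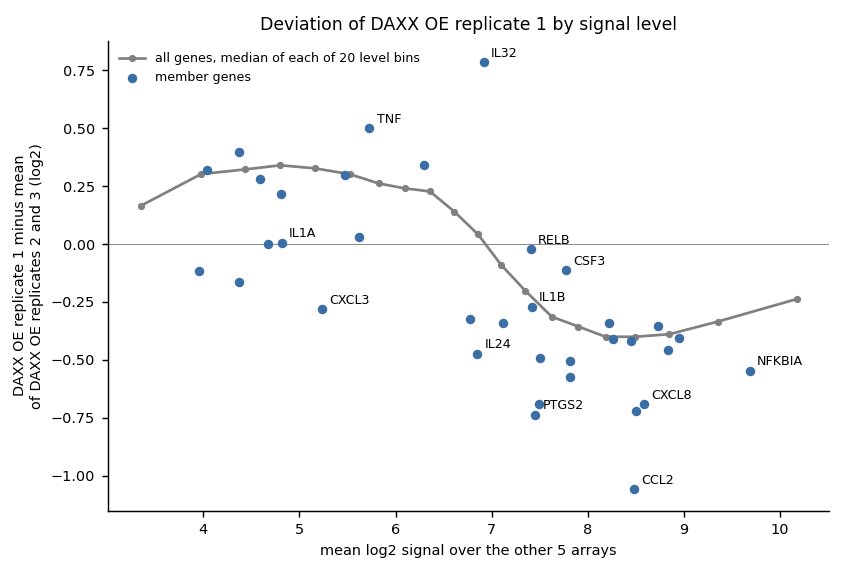
Deviation of DAXX OE replicate 1 from the mean of DAXX OE replicates 2 and 3 (log2, vertical axis) against the mean log2 signal over the other 5 arrays (horizontal axis), for the 35 members (blue) and as the median of each of 20 level bins over all genes (grey line). CCL2 lies at -1.06 where its bin has a median of -0.40, and IL32 at 0.78 where its bin has 0.04.

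With 6 arrays no member passed the threshold over all genes (0 of 35 at limma adjusted p under 0.05, where 0.0623% of all genes were called). The count of members at an unadjusted p under 0.05 was 5 (14.3%, against 5.16% of all genes), namely IL1A, IL1B, CCL2 and ICAM1 with higher values in DSM OE (4, where 3.77% of all genes were higher) and CSF3 with a lower one (1.38% of all genes). The same 5 also exceeded a fold of 1.3, the study's own threshold for pathway analysis, which 2.25% of all genes met. The groups did not overlap in 7 members, these 5 together with CXCL1 and NFKBIZ (20%, against 19.2% of all genes). DSM OE lay above in 6 of the 7 (13.7% of all genes) and below in CSF3 (5.5%). Without DAXX OE replicate 1, IL24 was called as lower in DSM OE (1 of 35, or 2.86%, against 1.25% of all genes in either direction and 0.374% lower). In that fit 10 members had an unadjusted p under 0.05 (28.6% against 15.1%), 6 of them higher (8.86% of all genes) and 4 lower (6.19%). Of these, 4 exceeded a fold of 1.3 (1.07% of all genes). The groups were apart in 14 members (40% against 31.6%), 8 with DSM OE above (18.1% of all genes) and 6 below (13.5%). After cyclic loess 0 members were called (0.111% of all genes), 7 had an unadjusted p under 0.05 (10.5%) and 10 did not overlap (23.1%). The median difference over the 35 members was 0.10 with 6 arrays, 0.03 with 5 and 0.09 after cyclic loess, and the median over all genes was 0.01, 0.00 and -0.01 in turn. Of the members 25 had a positive and 10 a negative difference with 6 arrays, and the numbers were again 25 and 10 with 5, although 10 members changed sign between these fits. Of all genes 51.3% and 52.4% were positive in turn. Among genes above the median level with 6 arrays, 17 of 21 members and 75.9% of all genes were positive.

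**Figure D2:**
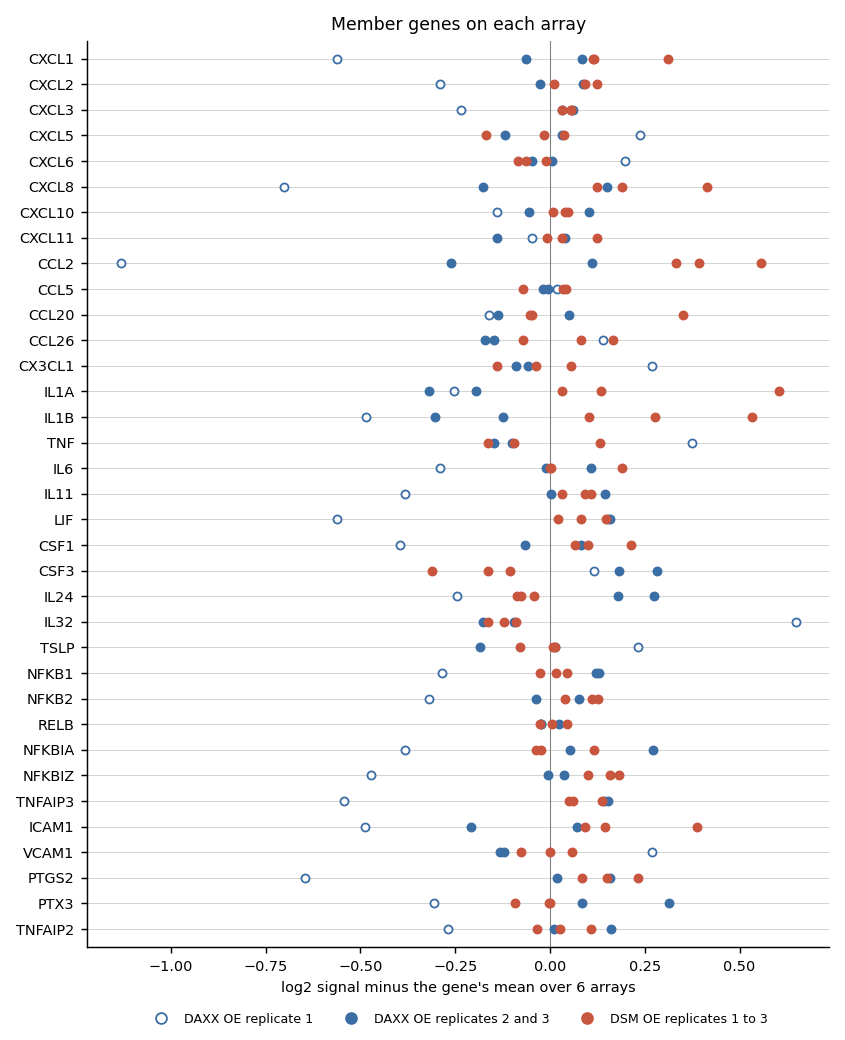
Signal of each of the 35 members on each array, as the log2 signal minus the gene's mean over 6 arrays (horizontal axis), with 1 row per gene. Open circles mark DAXX OE replicate 1, blue circles the other DAXX OE arrays and red circles the DSM OE arrays. The open circle lies outside both blue circles in 32 of the 35 rows.

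IL1B and IL1A read higher in DSM OE by about the same amount with 6 and with 5 arrays, although neither passed the threshold. IL1B, the secreted interleukin-1 beta that triggers NF-kB through the interleukin-1 receptor, read 6.83, 7.01 and 7.19 in DAXX OE replicates 1 to 3 and 7.85, 7.60 and 7.42 in DSM OE. Every DSM OE array lay above every DAXX OE array. The difference was 0.61 on the log2 scale (1.52-fold, SE 0.14, 95% interval 0.28 to 0.94, limma adjusted p = 0.537) with 6 arrays and 0.52 (SE 0.13, adjusted p = 0.131) with 5. IL1A, the interleukin-1 alpha that cells release on damage, read 4.51, 4.44 and 4.57 in DAXX OE, close to the background median of 4.26 to 4.46, and 5.37, 4.90 and 4.80 in DSM OE. These groups did not overlap either, and the difference was 0.51 with 6 arrays (1.43-fold, SE 0.15, limma adjusted p = 0.682) and with 5 arrays (SE 0.16, adjusted p = 0.221), and 0.62 after cyclic loess (adjusted p = 0.313). DSM OE replicate 1 was the highest of the 6 arrays in both genes, as in 14 of the 35 members, and the highest DSM OE array in 23. Without it the differences were 0.49 for IL1B and 0.34 for IL1A. TNF, the third upstream cytokine, was dim (5.84 ± 0.29 and 5.76 ± 0.15, log2, SD, n = 3) with overlapping groups and a difference of -0.08 (95% interval -0.45 to 0.29). It turned to 0.08 with 5 arrays. TNF was covered by 8 clusters, which held 2 distinct sets of values, and the brightest is given.

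Among the chemokines that attract monocytes, lymphocytes or eosinophils, CCL2 had the largest difference of all members with 6 arrays, but not with 5. CCL2, the monocyte chemoattractant, read 7.12, 7.99 and 8.36 in DAXX OE and 8.81, 8.58 and 8.64 in DSM OE. The DSM OE arrays were all higher, and the lowest array by far was DAXX OE replicate 1, which deviated by -1.06 from the mean of the other DAXX OE arrays. The difference was accordingly 0.85 with 6 arrays (1.81-fold, SE 0.29, adjusted p = 0.682), 0.50 with 5 (1.42-fold, SE 0.12, adjusted p = 0.124) and 0.72 after cyclic loess (adjusted p = 0.348), all by limma. CCL26, an eosinophil chemoattractant (eotaxin-3), read 5.64, 5.35 and 5.33 in DAXX OE and 5.67, 5.58 and 5.43 in DSM OE. Here the high DAXX OE array was replicate 1, so the groups overlapped with 6 arrays (difference 0.12, SE 0.12) and separated with 5 (0.22, SE 0.07, adjusted p = 0.241) and with 6 after cyclic loess (0.22, adjusted p = 0.336). CXCL10 and CXCL11, the interferon-inducible chemokines for CXCR3, CCL20, the ligand of CCR6, CCL5 and the membrane-bound chemokine CX3CL1 differed by -0.08 to 0.17 with 6 arrays and by 0.01 to 0.13 with 5, with overlapping groups in both. After cyclic loess they differed by -0.03 to 0.25, again with overlap. CXCL10 was below the background median on 5 arrays and CCL20 on 6. In bulk RNA, a change in the share of cells that make a cytokine and a change in RNA per cell cannot be told apart.

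**Figure D3:**
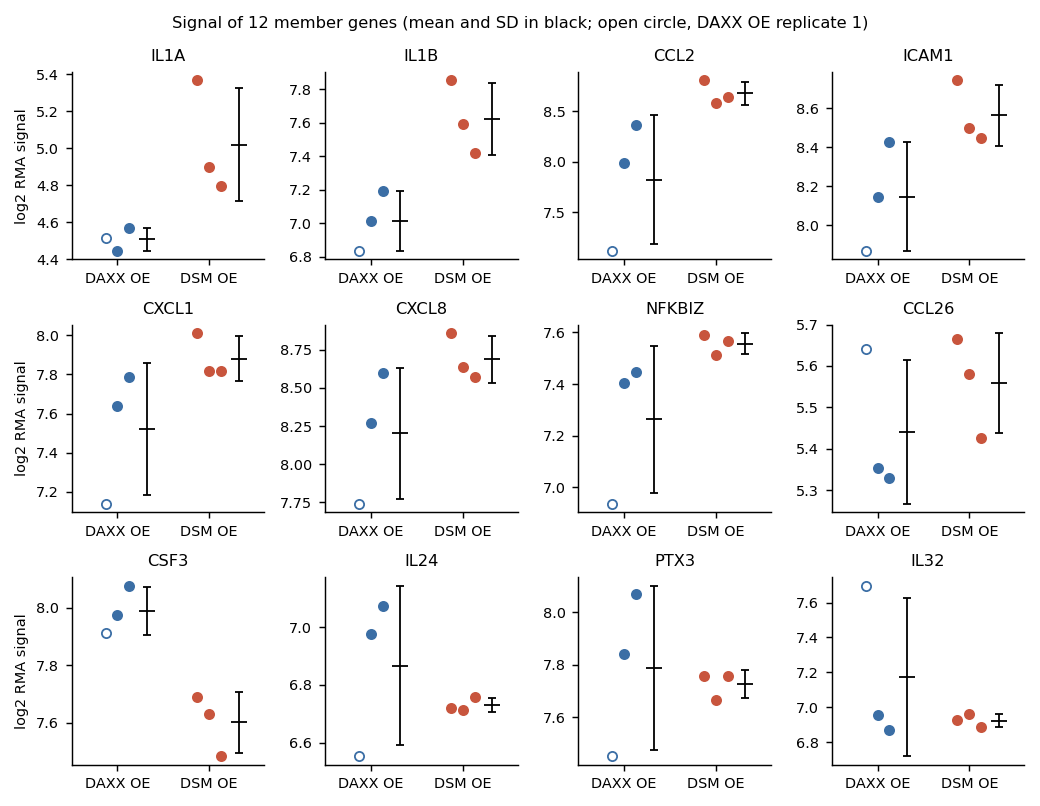
Log2 signal (vertical axes, each with its own range) of 12 members on each array, DAXX OE in blue and DSM OE in red, with the mean and SD of 3 arrays in black and DAXX OE replicate 1 as an open circle. The DSM OE arrays lie above all DAXX OE arrays in IL1A, IL1B, CCL2, ICAM1, CXCL1 and NFKBIZ and below them in CSF3, and IL32 is high on DAXX OE replicate 1 alone.

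The neutrophil chemokines, which signal through CXCR1 and CXCR2, had a median difference of 0.12 with 6 arrays, 0.02 with 5 and 0.18 after cyclic loess. Of the 6 genes 4 had a positive difference in the first and second of these fits and 6 after cyclic loess, and 0 were called in any of the 3. CXCL8 (interleukin-8) read 7.74, 8.27 and 8.60 in DAXX OE and 8.86, 8.63 and 8.57 in DSM OE. Its groups overlapped by the margin between DAXX OE replicate 3 and DSM OE replicate 3, and the difference was 0.49 with 6 arrays (SE 0.21, limma adjusted p = 0.682), 0.26 with 5 (SE 0.12, adjusted p = 0.396) and 0.35 after cyclic loess (adjusted p = 0.451). CXCL1 read 7.14, 7.64 and 7.79 in DAXX OE and 8.01, 7.82 and 7.82 in DSM OE, with no overlap, and its difference was 0.36 (SE 0.17, limma adjusted p = 0.682) with 6 arrays and 0.17 (SE 0.08, adjusted p = 0.389) with 5. CXCL8 and CXCL1 are given array by array because their values stood out after they were seen. CXCL2 differed by 0.15 and 0.05 and CXCL3 by 0.10 and 0.00 in the same fits, and by 0.16 and 0.20 after cyclic loess. CXCL5 and CXCL6 were dim (4.47 to 5.05 on every array) and differed by -0.10 each with 6 arrays and by -0.00 and -0.03 with 5, and both turned just above 0 after quantile normalization and cyclic loess. CXCL1, CXCL2 and CXCL3 are close paralogs, so part of a signal may be shared between them.

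Of the interleukin-6 family and the colony-stimulating factors, CSF3 stood apart with the opposite direction. CSF3, the granulocyte colony-stimulating factor, read 7.91, 7.98 and 8.08 in DAXX OE and 7.69, 7.63 and 7.48 in DSM OE. All DSM OE arrays were lower, and DAXX OE replicate 1 deviated by -0.11 from the mean of the other DAXX OE arrays. The difference was -0.39 with 6 arrays (SE 0.09, 95% interval -0.61 to -0.17, limma adjusted p = 0.597), -0.42 with 5 (SE 0.07, adjusted p = 0.0550) and -0.50 after cyclic loess (adjusted p = 0.122). On the same 5 arrays CSF3 passed when the fit was run on genes above the median level alone (limma adjusted p = 0.00228). That fit tested fewer genes and also took its moderation of the variances from them alone. IL6, a secreted driver of STAT3 signalling, had a mean signal (log2, SD, n = 3) of 6.99 ± 0.20 in DAXX OE and 7.12 ± 0.11 in DSM OE, with a difference of 0.13 (95% interval -0.16 to 0.42) with 6 arrays and 0.02 with 5. IL11 and LIF, cytokines of the same receptor family, differed by 0.16 and 0.17 with 6 arrays and by 0.00 and -0.07 with 5. CSF1, the macrophage growth factor, differed by 0.25 (SE 0.13) and 0.12 (SE 0.07).

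IL24, a cytokine of the interleukin-10 family known for inducing death of tumour cells, was the member called without DAXX OE replicate 1. It read 6.55, 6.98 and 7.07 in DAXX OE and 6.72, 6.71 and 6.76 in DSM OE. Replicate 1 was the lowest of the 6 arrays and the other DAXX OE arrays were the highest, so the groups overlapped with 6 arrays (difference -0.14, SE 0.14, limma adjusted p = 0.688) and IL24 fell by 0.29 in DSM OE with 5 (SE 0.05, adjusted p = 0.0475). Over 13 alternatives its adjusted p ranged from 0.0475 to 0.911 and its difference from -0.29 to -0.03. On that array genes of the same level as IL24 had a median deviation of 0.04, whereas IL24 deviated by -0.47 from the other DAXX OE arrays. IL32, a proinflammatory cytokine, showed the reverse. It read 7.70 on DAXX OE replicate 1 and 6.95 and 6.87 on the others, against 6.93, 6.96 and 6.88 in DSM OE, so that its difference was -0.25 with 6 arrays (SE 0.21) and 0.01 with 5 (SE 0.05, 95% interval -0.10 to 0.12). TSLP, an epithelial cytokine, was below the background median on 5 of 6 arrays.

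The genes of the NF-kB core and its feedback inhibitors lay well above the background median on every array, and 0 of the 6 were called with 6 or 5 arrays. NFKB1, which encodes the p105 precursor of p50, read 7.92, 8.33 and 8.32 in DAXX OE and 8.18, 8.22 and 8.24 in DSM OE, a difference of 0.02 (SE 0.13) with 6 arrays and of -0.11 (SE 0.04, limma adjusted p = 0.269) with 5, where the groups separated. NFKB2 and RELB, the subunits of the non-canonical branch, differed by 0.19 and 0.02 with 6 arrays and by 0.07 and 0.01 with 5. RELB was the steadiest member, with all 6 arrays between 7.38 and 7.45. NFKBIA, the IkB-alpha inhibitor and a direct target of the pathway, read 9.23, 9.66 and 9.88 in DAXX OE and 9.73, 9.57 and 9.58 in DSM OE, with a difference of 0.04 (95% interval -0.35 to 0.42) that turned to -0.14 (-0.34 to 0.05) with 5 arrays. TNFAIP3, the ubiquitin-editing inhibitor A20, differed by 0.17 and -0.06. NFKBIZ, a nuclear IkB protein that works with p50 on secondary targets, read 6.94, 7.40 and 7.45 in DAXX OE and 7.59, 7.51 and 7.57 in DSM OE, with no overlap. Its difference was 0.29 (SE 0.14) with 6 arrays and 0.13 (SE 0.04, limma adjusted p = 0.243) with 5.

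Of the adhesion and effector genes, ICAM1 read higher on every DSM OE array than on any DAXX OE array. ICAM1, the leukocyte adhesion receptor, read 7.87, 8.15 and 8.43 in DAXX OE and 8.74, 8.50 and 8.45 in DSM OE. The highest DAXX OE and lowest DSM OE arrays differed by less than the spread within either group, and the difference was 0.42 (1.34-fold, SE 0.16, limma adjusted p = 0.682) with 6 arrays and 0.28 (SE 0.11, adjusted p = 0.332) with 5. PTX3, a secreted pattern-recognition protein, read 7.45, 7.84 and 8.07 in DAXX OE and 7.76, 7.67 and 7.76 in DSM OE. As for IL24, replicate 1 was the lowest array and the other DAXX OE arrays the highest, and the difference of -0.06 (SE 0.15) with 6 arrays became -0.23 (SE 0.07, adjusted p = 0.228) with 5. PTGS2, the inducible cyclooxygenase, differed by 0.31 and 0.07, and TNFAIP2 by 0.07 and -0.05. VCAM1, a second adhesion receptor, was dim (4.43 and 4.42) and differed by -0.01 with 6 arrays and 0.12 with 5.

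**Figure D4:**
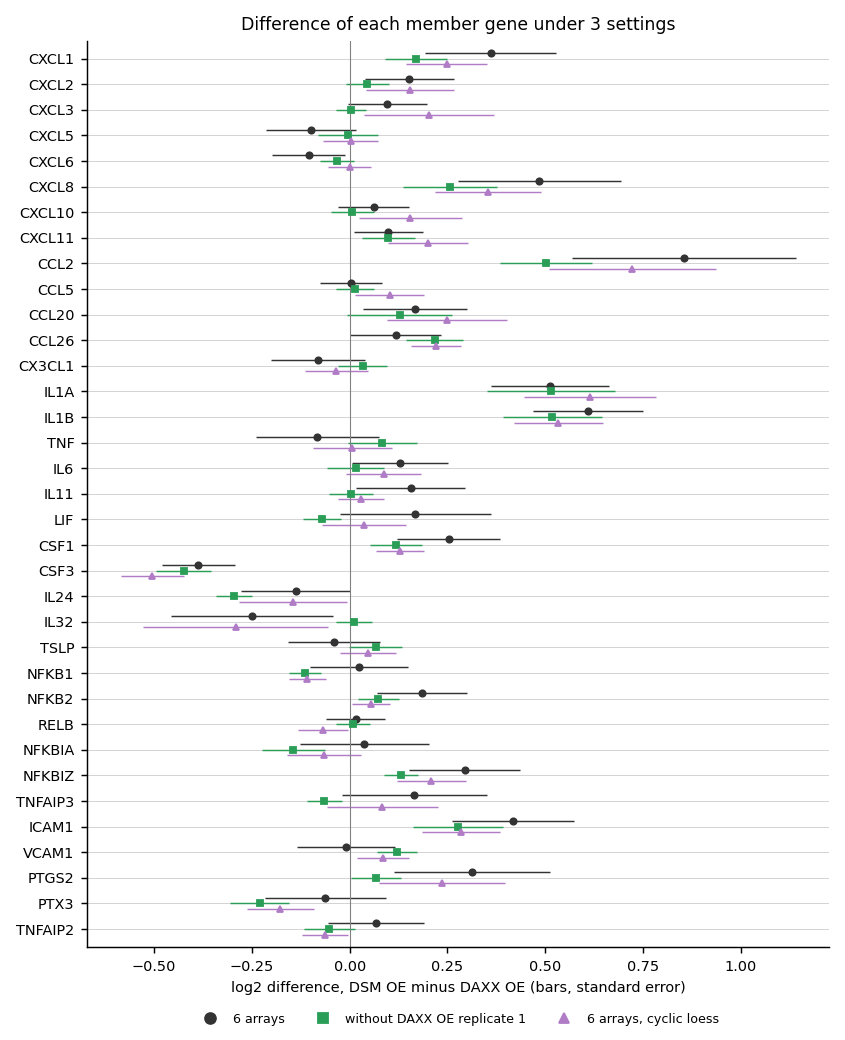
Log2 difference, DSM OE minus DAXX OE (horizontal axis), of each of the 35 members with its standard error, with 6 arrays (black), without DAXX OE replicate 1 (green) and with 6 arrays after cyclic loess (purple). IL1A, IL1B, CCL2 and ICAM1 stay to the right of 0 and CSF3 to the left in all 3 settings, while IL32, LIF, NFKB1, NFKBIA and TNFAIP3 change side between settings. CXCL5, CXCL6, CX3CL1, TNF, TSLP, RELB, VCAM1 and TNFAIP2 change side as well.

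Other genes of the pathway were counted from lists of signalling genes, further Rel and IkB genes, further target genes, receptors for cytokines and chemokines, and further cytokines. Of these 100 genes 86 were measured. With 6 arrays none passed the threshold (0 at limma adjusted p under 0.05). At an unadjusted p under 0.05, 8 were higher and 0 lower, where 3.77% of all genes were higher and 1.38% lower. These counts were 14 and 6 with 5 arrays, where 8.86% of all genes were higher and 6.19% lower. After cyclic loess they were 9 and 8, where 6.32% of all genes were higher and 4.18% lower. With 5 arrays 3 passed the threshold as higher and 1 as lower, where 0.872% of all genes were higher and 0.374% lower. CXCR4 is the receptor for CXCL12, a gene of the further cytokine list and not a member. It read 7.48, 7.85 and 7.87 in DAXX OE and 8.33, 8.36 and 8.43 in DSM OE. The groups were well apart, and CXCR4 was 0.51 higher with 5 arrays (adjusted p = 0.00805) and after cyclic loess (adjusted p = 0.0368), and by 0.64 with 6 arrays (SE 0.12, adjusted p = 0.376). CCL28, a mucosal chemokine, read 5.94, 5.82 and 5.81 against 6.29, 6.25 and 6.32, and was 0.47 higher with 5 arrays (adjusted p = 0.00771) and 0.43 with 6 (adjusted p = 0.376). PLAU, the urokinase plasminogen activator and an NF-kB target, was 0.27 higher (limma adjusted p = 0.0497) with 5 arrays and differed by 0.39 (adjusted p = 0.682) with 6. CYLD, a deubiquitinase that restrains NF-kB, read 7.75, 8.35 and 8.45 in DAXX OE and averaged 7.98 in DSM OE, and fell by 0.42 (adjusted p = 0.0195) with 5 arrays. It differed by -0.20 with 6 arrays (adjusted p = 0.682), since DAXX OE replicate 1 was the lowest array.

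Within the lists, 19 of 23 measured signalling genes had a positive difference with 6 arrays (median 0.17, and 0.06 with 5), and so did 75.9% of all genes above the median level. The list also holds genes below that level, TLR2 among them. The 19 included the adaptor MYD88 (0.22, SE 0.09, limma adjusted p = 0.682), and 0 were called. With 5 arrays and after cyclic loess 18 of the 23 were positive, as were 52.4% and 48.2% of all genes at any level in turn. The share among genes above the median level was not counted for these fits, so these counts have no background of like level. Without DAXX OE replicate 1, MYD88 (0.15), OTULIN (0.12), a deubiquitinase, and TRAF6 (-0.12), a ubiquitin ligase, had adjusted p of 0.195 to 0.298. Of the other Rel and IkB genes BCL3, a nuclear IkB protein, differed by 0.25 and 0.18 and NFKBIB by -0.06 and -0.11. Among other targets, the median was 0.09 with 6 arrays and 0.00 with 5. IER3 (0.39 and 0.28) and TRAF1 (0.26 and 0.26) lay above 0 in both fits, and SDC4 (-0.09 and -0.16) and IRF1 (-0.10 and -0.13) below. The receptors and the further cytokines had medians of -0.07 each with 6 arrays and of -0.00 and -0.03 with 5. Of the receptors, CRLF2, which binds TSLP, differed by 0.23 and 0.25 and LIFR, the receptor for LIF, by 0.35 and 0.15, and of the further cytokines CXCL16 differed by 0.14 and 0.17 and IL18 by -0.02 and -0.13. None of these was called over all genes with 6 or 5 arrays, whereas BCL3, IER3, TRAF1, SDC4, CRLF2 and LIFR passed with 5 arrays among genes above the median level (adjusted p of 0.0110 to 0.0449). The share of all genes called in that fit was not counted. Of 7 measured leukocyte markers, CD14, LYZ and CD68 had higher values in DSM OE with 6 arrays at an unadjusted p under 0.05. Their differences were 0.28, 0.40 and 0.24 (each with limma adjusted p = 0.682), and 3.77% of all genes were higher at that threshold. With 5 arrays CD14 no longer met it (0.20, limma unadjusted p = 0.0587). The mean log2 signal of the list was 6.03 to 6.12 in DAXX OE and 6.14 to 6.18 in DSM OE. PTPRC, which defines leukocytes, read 4.57 and 4.42, close to the background median, and was not higher in DSM OE (-0.15). CD3E (-0.13) and ITGAM (-0.14) were not higher with 6 arrays either, and FCGR3A differed by 0.04. With 5 arrays CD3E differed by 0.01, ITGAM by -0.01 and FCGR3A by 0.13. The median difference of the leukocyte list was 0.04 with 6 arrays, 0.13 with 5 and 0.15 after cyclic loess. The fibroblast list averaged 5.04 to 5.17 in DAXX OE and 5.01 to 5.09 in DSM OE, and the endothelial list 5.86 to 5.97 and 5.78 to 5.86. The part of these markers in the member differences was not tested.

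**Figure D5:**
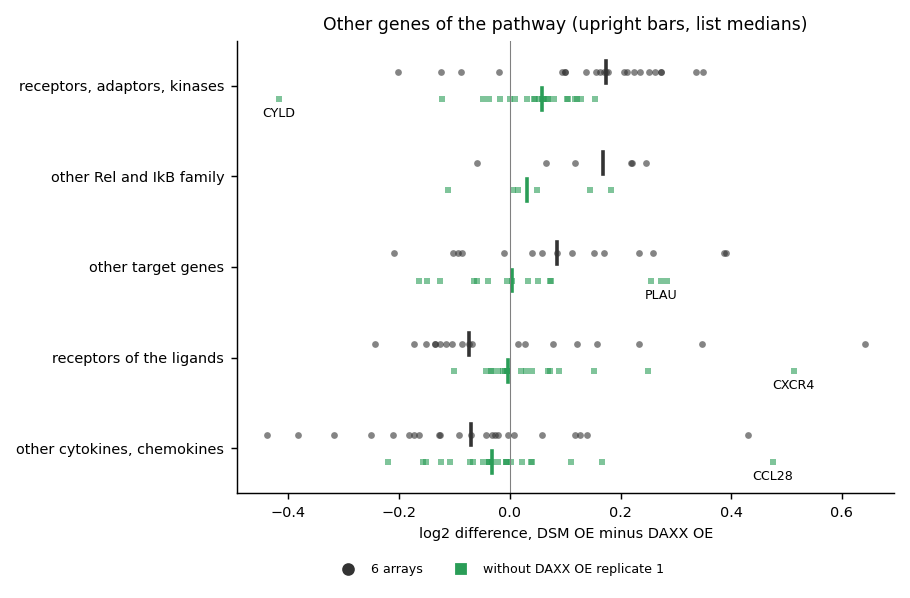
Log2 difference, DSM OE minus DAXX OE (horizontal axis), of the 86 measured genes in 5 further lists, with 6 arrays (black circles) and without DAXX OE replicate 1 (green squares), and list medians as upright bars. The named genes CXCR4, CCL28, PLAU and CYLD passed the threshold over all genes without that array.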

How the data were processed

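RNA was hybridised to Affymetrix GeneChip Human Transcriptome Array 2.0 arrays, 3 per group, from 200 ng of total RNA after 24 h of culture. The values as deposited are on the log2 scale, made by the authors with robust multi-array averaging (RMA). Affymetrix Expression Console 1.3 is named in the processing notes of the submitters. The methods describe ComBat for arrays from different times, and its use on these 6 arrays is not stated in the sources used here. The number of arrays limits the precision. Of 70523 rows, 23781 clusters carried 1 gene symbol. Symbols were checked by Entrez identifier against RefSeq (0 changed), and 2284 clusters without a match kept theirs.

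DSM OE was compared with DAXX OE over all 22465 genes by 2-sided moderated tests in limma 3.58.1 (R 4.3.3, Benjamini-Hochberg adjustment, threshold 0.05), and the script was tested on simulated data. Every printed p comes from limma. Members, lists and tests were chosen with earlier results of these data known. Values per array are given for members called or, with groups apart, under an unadjusted p of 0.05 in either fit, the 3 largest differences per direction in either, and members that changed direction between the fits with a difference beyond 0.2 in 1 of them. From the other pathway lists, genes called in either fit and up to 2 per list and direction under an unadjusted p of 0.05 are named. CXCL1, CXCL8 and NFKBIA are shown the same way, and the second motif was searched, after their values or matches were seen. Alternatives were leaving out each array, a block for the replicate number, quantile, cyclic loess and median normalization, genes above the median level, the mean of a gene's clusters, trended and robust moderation, the study's fold and p thresholds, and the unpaired test its methods name. No scan date or batch is labelled. Promoter windows came from RefSeq (GRCh38.p14).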

Additional observations from a re-analysis of the deposited data

How the results depend on the processing

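The direction of 20 members held under every alternative run, and that of 15 turned under at least 1. At an adjusted p under 0.05 the count of called members was 0 under every alternative with 6 arrays, and members were called only without DAXX OE replicate 1. With 1 array left out at a time, differences that changed sign ranged from -0.016 to 0.041 for CCL5, from -0.15 to 0.033 for CX3CL1, from -0.18 to 0.083 for TNF, from -0.071 to 0.29 for LIF, from -0.40 to 0.011 for IL32, from -0.14 to 0.067 for TSLP, from -0.11 to 0.093 for NFKB1, from -0.0035 to 0.033 for RELB, from -0.14 to 0.18 for NFKBIA, from -0.065 to 0.28 for TNFAIP3, from -0.079 to 0.12 for VCAM1, from -0.23 to 0.080 for PTX3, from -0.052 to 0.16 for TNFAIP2. After quantile normalization the sign also turned for CXCL5 (0.0063), CXCL6 (0.0040), TSLP (0.069), NFKB1 (-0.11), RELB (-0.075), NFKBIA (-0.051), VCAM1 (0.095), TNFAIP2 (-0.059). After cyclic loess the sign also turned for CXCL5 (0.0024), CXCL6 (5.51e-04), TNF (0.0071), TSLP (0.047), NFKB1 (-0.11), RELB (-0.069), NFKBIA (-0.066), VCAM1 (0.085), TNFAIP2 (-0.062). The cause was not tested for any of these. The count of called members was 0 with 6 arrays, 0 to 1 over the fits with 1 array left out, 5 at a fold beyond 1.3 with an unadjusted p under 0.05, and 3 with the methods' unpaired test at the same thresholds. The methods' test gave 0 members and 1 gene after Benjamini-Hochberg adjustment. With 5 arrays the count was 1, and it was 4 at the fold and p thresholds. It was 5 when the fit was run on genes above the median level alone (CCL2, CSF3, IL1B, IL24 and PTX3, besides 9 genes of the pathway lists). That fit tested fewer genes and took its moderation from them alone. The share of all its genes that were called was not counted, so these counts cannot be set against a background. Over all genes the count was 14 with 6 arrays, 1 to 280 with 1 array left out (280 without DAXX OE replicate 1), 25 after cyclic loess, 5 over genes above the median level, 505 at the fold and p thresholds and 247 with the methods' test. The pathway lists held 0 called genes with 6 arrays, 0 to 4 with 1 array left out (4 without DAXX OE replicate 1), 1 after cyclic loess, 4 at the fold and p thresholds and 4 with the methods' test. With the replicate block 40 genes and 0 members were called. Same-numbered arrays did not deviate together (r of -0.05, -0.30 and 0.17 across genes), so the numbers were not used for pairing. Among 5 arrays the replicate block also called 1 member, CSF3 in place of IL24 (adjusted p = 0.0401). CXCL10, CCL20, TSLP and VCAM1 lay below the background median on most arrays, which limits what their differences show.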
